A study of Mus musculus with 9 samples.

Results

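Ethanol is cleared in the liver by a short chain of enzymes, and 9 of the genes that encode them were examined among the 16755 genes of the authors' table. The rows of the members were picked by gene symbol alone, and all 9 were found. The set itself was chosen with earlier results of these data known. They are the alcohol dehydrogenases Adh1, Adh4, Adh5 and Adh7, the cytochrome P450 Cyp2e1, catalase (Cat), and the aldehyde dehydrogenases Aldh2, Aldh1a1 and Aldh1b1. The samples were 9 livers of C57BL/6 mice (C57BL/6J in the study's methods), 3 in each of 3 groups, and every mouse carried a floxed Scd2, the gene of stearoyl CoA desaturase 2. The first group was Scd2f/f and untreated. The second was Scd2f/f and had been given the liver carcinogen diethylnitrosamine (DEN, 10 mg/kg) when 2 weeks old and, from the age of 6 weeks, a Western alcohol diet (WAD), which holds ethanol, cholesterol and lard in liquid form and lasted 4 months per the labels. The study's methods give a longer time on the diet. The third was Scd2f/f;Col1a1-Cre (Scd2f/f;CC) on the same regimen. Its Cre recombinase is driven by the Col1a1 promoter, which is active in activated hepatic stellate cells (aHSC) and portal fibroblasts. The study used male mice and took the treated tissue next to liver tumors, as tumor-adjacent liver (TAL), whereas the labels call all of it liver. Per the study, TAL held microscopic tumors but no evident visible ones, and tumors were much reduced in Scd2f/f;CC mice. The part of tumor cells in the values of either comparison was not tested.

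Alcohol dehydrogenases in the cytosol oxidize ethanol to acetaldehyde and pass the electrons to NAD. CYP2E1 in the endoplasmic reticulum does the same with NADPH and oxygen, and is known for being raised by ethanol mainly through a longer life of the protein. Catalase in peroxisomes can oxidize ethanol with hydrogen peroxide. Acetaldehyde is then oxidized to acetate, chiefly by ALDH2 in mitochondria, and most of this chain sits in hepatocytes. The WAD contained ethanol and the untreated mice received none, so the first comparison (Scd2f/f after DEN and WAD against untreated Scd2f/f) sets the genes beside exposure to their substrate, together with the carcinogen, lard and cholesterol. The second comparison (Scd2f/f;CC against Scd2f/f, both after DEN and WAD) asks whether the loss of Scd2 from Col1a1-expressing cells went with other levels of these hepatocyte genes.

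The values are the authors' group means of normalized read counts, 1 per gene and group, with 3 significant digits. No value of a single mouse was analysed here and the depth of the libraries is unknown, so the spread between mice could not be computed and no difference between groups was tested. The tests that the authors ran on the mice are not used here. The rounding of the means alone could move a log2 ratio of a member by at most 0.011. Differences are therefore given as descriptions, and a 1.5-fold difference was used as a fixed limit of size. The means of bulk liver are scaled to the upper quartile of the counts and are not amounts per cell. Fewer hepatocytes and less of an RNA in each hepatocyte therefore cannot be told apart.

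Promoter sequences are shown for the 4 members that the values below turn on, which are the member with the highest level (Cyp2e1), the peroxisomal enzyme (Cat), the member with the largest difference after DEN and WAD (Aldh1b1) and the member with the largest difference between the genotypes (Adh7). Each is the 250 bases before the RefSeq start of the gene on GRCm38.p6, 5′ to 3′ on the strand of the gene. Capitals mark matches on either strand to TATAAA (the TATA box), CCAAT (the CCAAT box), TTGCNNAA (a short form of the C/EBP site), TGACNNNGC (the antioxidant response element) or CACGTG (the E-box). The windows are chr7:140763569-140763818 on the plus strand for Cyp2e1, chr2:103485154-103485403 on the minus strand for Cat, chr4:45798772-45799021 on the plus strand for Aldh1b1, and chr3:138217523-138217772 on the plus strand for Adh7.
Cyp2e1: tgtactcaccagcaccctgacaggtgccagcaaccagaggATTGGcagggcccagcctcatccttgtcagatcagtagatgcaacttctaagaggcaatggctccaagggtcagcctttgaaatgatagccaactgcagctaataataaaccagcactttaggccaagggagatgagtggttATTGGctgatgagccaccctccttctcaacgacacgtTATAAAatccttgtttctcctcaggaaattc
Cat: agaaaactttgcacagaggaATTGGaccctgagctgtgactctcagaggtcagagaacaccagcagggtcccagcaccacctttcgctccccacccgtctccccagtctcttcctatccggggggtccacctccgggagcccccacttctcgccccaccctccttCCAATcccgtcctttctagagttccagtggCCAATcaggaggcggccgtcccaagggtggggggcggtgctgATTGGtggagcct
Aldh1b1: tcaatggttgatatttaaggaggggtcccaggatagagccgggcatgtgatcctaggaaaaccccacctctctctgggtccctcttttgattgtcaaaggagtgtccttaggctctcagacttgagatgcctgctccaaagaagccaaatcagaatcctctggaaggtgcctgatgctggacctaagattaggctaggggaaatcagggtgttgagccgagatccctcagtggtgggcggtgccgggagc
Adh7: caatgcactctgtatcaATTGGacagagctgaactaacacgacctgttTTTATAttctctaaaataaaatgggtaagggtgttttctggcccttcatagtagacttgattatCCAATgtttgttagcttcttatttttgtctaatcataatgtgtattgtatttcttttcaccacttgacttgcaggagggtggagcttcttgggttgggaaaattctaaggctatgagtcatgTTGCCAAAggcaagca

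The spans given below for Cyp2e1, Cat and Adh7 begin upstream of the RefSeq start, so their windows end inside these spans. The Cyp2e1 window held a TATA box 31 bases before the RefSeq start, inside that span, and CCAAT boxes 210 and 68 bases before it. The Cat window held 4 CCAAT boxes, at 230, 85, 55 and 13 bases before the start, and no TATA box. The Adh7 window held a TATA box at 202 bases, CCAAT boxes at 233 and 138 bases, and the C/EBP letters 16 bases before the start. None of the 5 motifs was found in the Aldh1b1 window, which says only that these letters are not in it. Of 32851 promoter windows of the same length, 12.4% held TATAAA, 33.8% CCAAT, 9.56% TTGCNNAA, 10.2% TGACNNNGC and 6.02% CACGTG. These matches describe the sequence, and nothing was measured at the promoters themselves.

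The members spanned a wide range of levels. Levels are compared between genes as the authors' mean divided by the exonic length of the gene in kb. Sums of means, shares of such sums and the plot of the group means use the means without this division. Cyp2e1 stood first, at 1881 per kb in untreated liver, 2170 after DEN and WAD in Scd2f/f mice and 2485 in Scd2f/f;CC mice, and its mean exceeded that of 99.8% of all genes in untreated liver. Cat followed at 448, 586 and 624 per kb in the same order of groups, and Adh1 at 345, 368 and 354. Aldh1a1, Aldh2, Adh5 and Adh4 came next, from 213 down to 38.9 per kb in untreated liver. Aldh1b1 (5.79, 10.2 and 12.9 per kb) and Adh7 (2.94, 2.10 and 2.70 per kb) were the lowest. The order of the 9 genes was the same in all 3 groups, so no difference between groups was large enough to exchange a pair of neighbours. Whether neighbours in that order differ beyond the spread between mice was not tested.

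**Figure D1:**
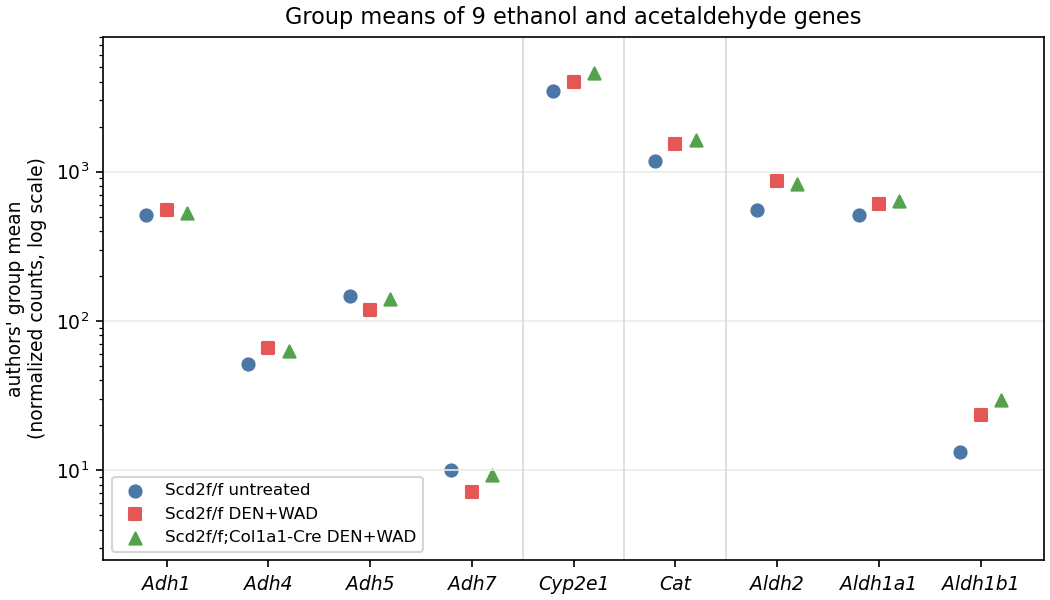
The authors' group means of normalized read counts (log axis) are plotted for the 9 members, with 1 point per group for Scd2f/f untreated, Scd2f/f DEN+WAD and Scd2f/f;Col1a1-Cre DEN+WAD and no error bars because each group has 1 value. The points of a gene lie close together, while the genes run from 7.20 for Adh7 to 4570 for Cyp2e1.

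Adh1, the class I enzyme that carries most of the hepatic oxidation of ethanol, had means of 514 in untreated liver, 549 in TAL of Scd2f/f mice and 528 in that of Scd2f/f;CC mice, and 3 means given together keep this order of groups from here on. It was the most even member over the 3 groups, with ratios of 1.07 for the first comparison and 0.962 for the second. Adh4, the class II enzyme, which acts on ethanol at high concentrations and on retinol, had means of 51.1, 65.9 and 62.5. The mean of Adh4 was therefore 1.29-fold that of untreated liver in Scd2f/f TAL and 0.948-fold that of Scd2f/f TAL in Scd2f/f;CC TAL.

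Adh5, the class III enzyme, acts mainly on the glutathione adduct of formaldehyde and little on ethanol. Its means were 148, 119 and 141. Adh7, the class IV enzyme known from the lining of the stomach, had means of 10.1, 7.20 and 9.27. Adh5 and Adh7 were the 2 members with lower means than untreated liver in both treated groups, at ratios of 0.804 and 0.713 in Scd2f/f TAL. Both were higher in Scd2f/f;CC than in Scd2f/f TAL, by 1.18-fold for Adh5 and 1.29-fold for Adh7. The summed mean of the 4 alcohol dehydrogenases was 723.2 in untreated liver, with 741.1 and 740.8 in TAL of Scd2f/f and Scd2f/f;CC mice, and Adh1 made up most of it.

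The 4 alcohol dehydrogenase genes lie in 1 cluster on chromosome 3, all on the plus strand. On GRCm38, Adh7 spans chr3:138217760-138233382, Adh1 chr3:138260991-138290698, Adh4 chr3:138415466-138430892 and Adh5 chr3:138443093-138455499. The members within the cluster did not share a direction, as the plot of the cluster shows. The pseudogene Adh6-ps1, between Adh1 and Adh4, had means of 24.1, 19.9 and 31.0, with a log2 ratio of 0.64 between the genotypes.

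The library kit did not mark strand, so reads of overlapping genes on opposite strands cannot be told apart by strand. The minus-strand gene 0610031O16Rik overlaps Adh7 and shares 108 exonic bases with it. Its means were 19.5, 13.1 and 16.5, above those of Adh7 in every group, and its log2 ratios were -0.57 and 0.33 where those of Adh7 were -0.49 and 0.36. Of the 50-base words of Adh7, 1.83% occur in transcripts of this gene, and how many of the reads counted for Adh7 came from them was not measured. Gm16559, on the minus strand at Adh1, shares 136 exonic bases with Adh1, and its means of 3.85, 4.97 and 5.25 are small beside those of Adh1.

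**Figure D2:**
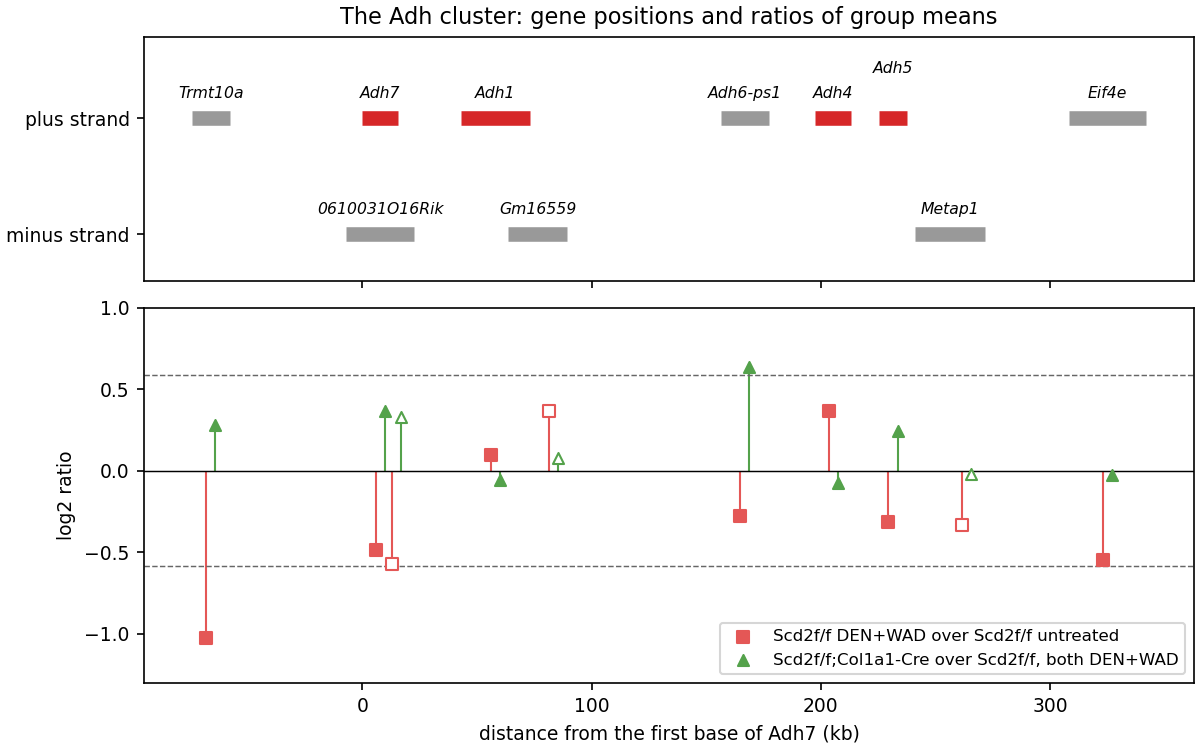
The upper panel maps the genes of the Adh cluster by strand (members in red) against the distance in kb from the first base of Adh7, and the lower panel gives each gene's log2 ratio of the authors' means for the 2 comparisons (filled markers for the plus strand, open markers for the minus strand, which are moved 7 kb to the right). Adh7 and the gene antisense to it have alike log2 ratios in both comparisons, Adh1 and Adh4 lie above 0 in the first comparison, and Adh5 lies below it.

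Cyp2e1, on the plus strand at chr7:140763739-140774987, had means of 3460, 3990 and 4570. The mean in Scd2f/f TAL was 1.15-fold that of untreated liver, and the mean in Scd2f/f;CC TAL was again 1.15-fold that of Scd2f/f TAL. Against untreated liver, Scd2f/f;CC TAL therefore stood at 1.32-fold. Of all genes with a mean of at least 1, 33.4% had a higher ratio than Cyp2e1 in the first comparison and 17.7% between the genotypes. It accounted for 53.8%, 51.4% and 54.2% of the summed member means, which were not divided by length.

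Cat, on the minus strand at chr2:103453849-103485160, had means of 1170, 1530 and 1630. The ratios were 1.31 for the first comparison and 1.07 for the second, so the mean of catalase was nearer between the 2 treated groups than between either and untreated liver. A ratio above that of Cat in the first comparison was found for 20.5% of genes.

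Aldh2, the mitochondrial enzyme that clears most acetaldehyde, had means of 554, 870 and 822. It lies on the minus strand at chr5:121566027-121593824. Its ratio of 1.57 in the first comparison was past the 1.5-fold limit, and 11.2% of genes had a higher one. Its ratio between the genotypes was 0.945, and its mean in Scd2f/f;CC TAL, 1.48-fold that of untreated liver, was just short of the limit. Aldh1b1, a second mitochondrial enzyme with activity on acetaldehyde, had means of 13.3, 23.5 and 29.7 and lies at chr4:45799022-45804604. Aldh1b1 had the highest ratio of any member in the first comparison, 1.77, and 8.33% of genes exceeded it. Its ratio between the genotypes was 1.26, which left Scd2f/f;CC TAL at 2.23-fold untreated liver, and 3.47% of genes had a higher ratio there.

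Aldh1a1, the cytosolic enzyme best known for making retinoic acid from retinal, had means of 509, 604 and 636, with ratios of 1.19 and 1.05. The table places it at chr19:20601961-20643462 on the plus strand. Of its 50-base words, 6.54% also occur in transcripts of its neighbour and close relative Aldh1a7, so part of its reads may have been split between them. Aldh1a7 itself had means of 83.3, 107 and 89.1. The shares for Cyp2e1, Adh1 and Aldh2 were 4.82%, 3.26% and 2.12%. For Adh4, Adh5, Aldh1b1 and Cat no 50-base word was shared with another gene. The summed mean of the 3 aldehyde dehydrogenases was 1076, 1498 and 1488.

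Over the 9 members, 7 had a higher mean in Scd2f/f TAL than in untreated liver, and Adh5 and Adh7 had a lower one, where 52.7% of all genes were higher. The median log2 ratio of the members was 0.25, beside 0.03 for all 11784 genes with a mean of at least 1. Past 1.5-fold were 2 members, Aldh2 and Aldh1b1, both higher, which is 22.2% of the members where 12.8% of all genes were 1.5-fold higher. With 9 genes, that share corresponds to 1.15 genes. The share of all genes was lower, 7.64%, among those whose mean reached 10, as it did for every member but Adh7. Among those whose mean reached 100 it was 9.31%, and 1 of the 6 members at that level was 1.5-fold higher. With no minimum mean the share was 17.2%. No member was 1.5-fold lower, where 8.6% of all genes were, and Adh7, at 0.713, was the nearest to that limit.

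Between the genotypes, 6 of the 9 members were higher in Scd2f/f;CC TAL, where 50.6% of all genes and 8 of 9 hepatocyte markers were higher. The median log2 ratio was 0.09, beside 0.0059 for all genes. No member was past 1.5-fold in either direction, where 2.35% of all genes were higher and 4.9% lower by that size. The shares depended on the level, with 1.83% higher and 1.79% lower among genes whose mean reached 10, and 4.58% higher and 1.07% lower among those whose mean reached 100. The ratios ran from 0.945 for Aldh2 to 1.29 for Adh7. The middle 80% of all genes ran from 0.773 to 1.22, and of the members Aldh1b1 and Adh7 lay above it. Against untreated liver, Aldh1b1 alone was 1.5-fold higher in Scd2f/f;CC TAL and no member was lower by that size, where 10.9% of all genes were higher and 7.71% lower. This last comparison is the product of the other 2 ratios and adds no independent value, and the first 2 share the Scd2f/f TAL mean.

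**Figure D3:**
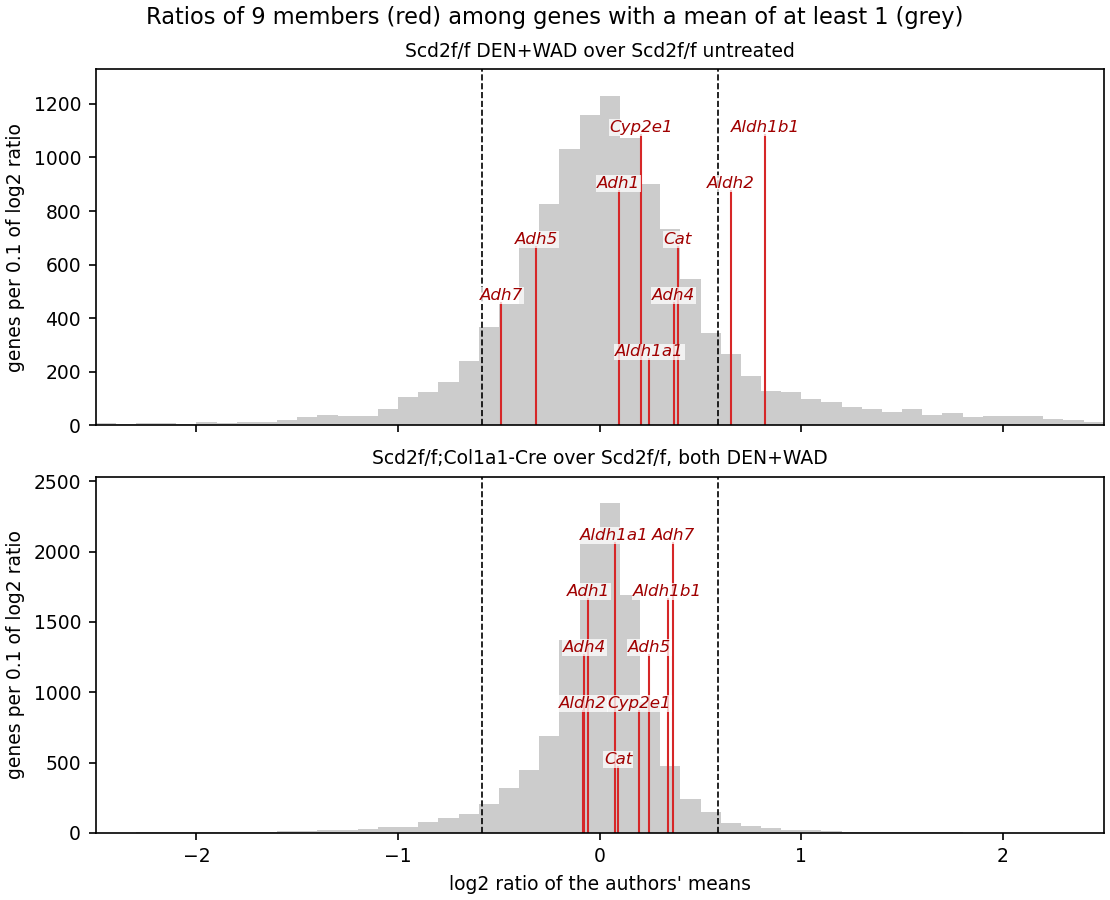
Grey bars count genes (mean of at least 1) by their log2 ratio of the authors' means, in steps of 0.1, for the first comparison (top) and the second (bottom), and red lines mark the 9 members. The height of a red line has no meaning, dashed lines mark 1.5-fold, and genes beyond the axis are not drawn. Aldh2 and Aldh1b1 pass the limit in the first comparison and no member passes it in the second.

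Several values of the whole table bear on these means. The 9 members made up 0.784%, 1.18% and 1.14% of all summed means. Their own sum was 6429.5, 7758.6 and 8428, while the sum over all genes was 820581, 658322 and 739723. The shares therefore also reflect the smaller sums over all genes in the treated groups. The highest mean of any gene was 76300, 28200 and 51000. Scd2, the targeted gene, had means of 2.46, 6.47 and 1.87, lowest in the group that carries the Cre. The tissue label was checked on hepatocyte markers. Alb had means of 21300, 20900 and 22700, and Apoa1 4730, 2890 and 3680, which was the 1 hepatocyte marker past 1.5-fold in the first comparison. The summed mean of 9 hepatocyte markers in the table was 45051, 44849 and 49923, and their median log2 ratio was -0.05 in the first comparison and 0.14 in the second. The summed mean of 8 macrophage markers was 54.7, 173 and 157, and 7 of the 7 with a mean of at least 1 were 1.5-fold higher in Scd2f/f TAL. Over all genes that share was 12.8%. The 10 stellate cell and fibroblast markers summed to 201.8, 342 and 195.7, and 7 of the 9 with a mean of at least 1 were 1.5-fold lower in Scd2f/f;CC than in Scd2f/f TAL, beside 4.9% of all genes. The part of these cells in the members' values was not tested. Taken relative to the hepatocyte markers, the log2 ratios between the genotypes of Aldh1a1 and Cat turned from 0.07 to -0.07 and from 0.09 to -0.05, and those of the other members kept their sign. That of Cyp2e1 fell from 0.20 to 0.05.

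The genes around the chain were described from lists, and their counts stand beside these shares of all genes. In the first comparison 52.7% were higher, with 12.8% higher and 8.6% lower by 1.5-fold. Between the genotypes 50.6% were higher, with 2.35% higher and 4.9% lower by that size. Of the other aldehyde dehydrogenases, which act on fatty, amino acid-derived and folate-linked aldehydes, 12 of 16 had a mean of at least 1. Of these, 11 were higher in Scd2f/f TAL than in untreated liver, 3 of them by 1.5-fold, and none was lower by that size, with a median log2 ratio of 0.31. Aldh3a2, which oxidizes long-chain fatty aldehydes, had means of 150, 432 and 319, with log2 ratios of 1.53 and -0.44. Aldh3b1 (0.71, 1.66 and 1.19) and Aldh18a1 (0.62, 1.43 and 0.99), the latter an enzyme of proline synthesis, were the others past the limit, both at low levels. Of the other enzymes that handle alcohols, Adhfe1 had means of 33.9, 42.2 and 40.5, and Akr1a1, an aldehyde reductase, 156, 157 and 146.

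Acetate, the product of the chain, is activated to acetyl-CoA by the ACSS enzymes. Acss2, the cytosolic one, had means of 60.4, 23.3 and 26.1, a log2 ratio of -1.37 in the first comparison. Acss3, a mitochondrial member of the family, had means of 12.6, 28.3 and 28.3, a log2 ratio of 1.17, and its use of acetate was not measured. The means of these 2 genes thus differed in opposite directions after DEN and WAD and were nearly level between the genotypes. Acot12, which releases acetate from acetyl-CoA, had means of 63.5, 62.3 and 78.8.

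CYP2E1 receives its electrons from cytochrome P450 reductase (Por), with cytochrome b5 (Cyb5a) as a helper. Por had means of 196, 114 and 158, with log2 ratios of -0.78 and 0.47, and Cyb5a 414, 290 and 327. Por was the 1 gene of the 5 electron donors past 1.5-fold in the first comparison, and it was lower in Scd2f/f TAL where Cyp2e1 was higher. None of the 5 was past the limit between the genotypes.

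The NADH made by alcohol and aldehyde dehydrogenases is reoxidized through shuttles into mitochondria and by lactate dehydrogenase. None of the 11 genes of this list was past 1.5-fold in the first comparison, and their median log2 ratio was 0.02. Got1, the cytosolic aspartate aminotransferase of the malate-aspartate shuttle, had means of 51.8, 39.0 and 71.7, and with a log2 ratio of 0.88 was the 1 gene past the limit between the genotypes. Ldha had means of 212, 301 and 321.

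Catalase removes the hydrogen peroxide that peroxisomal oxidases make. All 8 genes of that list with a mean of at least 1 were higher in Scd2f/f;CC than in Scd2f/f TAL, none by 1.5-fold, with a median log2 ratio of 0.25. A higher mean there was also found for 50.6% of all genes and 8 of 9 hepatocyte markers. Ehhadh, the bifunctional enzyme of peroxisomal fatty acid oxidation, which makes no peroxide itself, had means of 121, 255 and 328. Hao1, which oxidizes glycolate, differed the other way, with means of 174, 108 and 120. Of the 11 other genes of peroxide removal, such as glutathione peroxidases and peroxiredoxins, none was past the limit in either comparison.

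**Figure D4:**
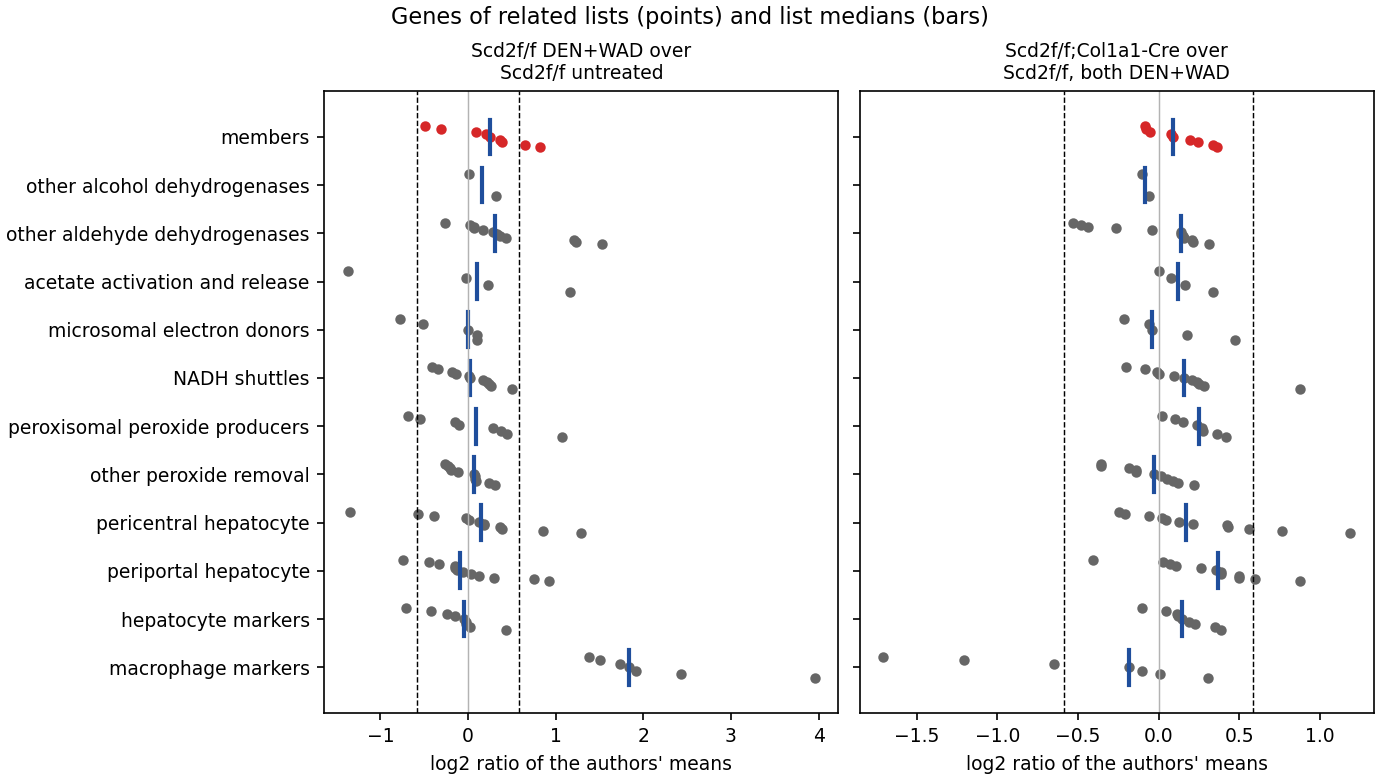
Each point is 1 gene of a related list, placed by its log2 ratio of the authors' means, with blue bars at the list medians, dashed lines at 1.5-fold, the 9 members in red and the 2 comparisons in panels whose axes differ in range. The macrophage markers lie to the right of every member in the first comparison, where Acss2 lies furthest to the left, and all points of the peroxide producers lie to the right of 0 in the second.

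Expression of Cyp2e1 is zonated in the liver lobule and is highest around the central vein. Of 12 genes of pericentral hepatocytes, 2 were 1.5-fold higher and 1 lower in the first comparison, and 2 were higher in the second. The shares of all genes were 12.8% higher and 8.6% lower in the first, and 2.35% higher in the second. Cyp2c29 had means of 648, 255 and 581, the glutamate transporter Slc1a2 92.7, 226 and 196, and the ornithine aminotransferase Oat 244, 441 and 593. Of 12 genes of periportal hepatocytes, 11 were higher in Scd2f/f;CC than in Scd2f/f TAL, 2 of them by 1.5-fold, with a median log2 ratio of 0.37 beside 0.17 for the pericentral list. Over all genes, 50.6% were higher, and 2.35% by 1.5-fold. Hal, which breaks down histidine, had means of 102, 97.7 and 179, and Arg1 of the urea cycle 519, 311 and 406. Of the pericentral genes, 9 were higher and 3 lower in Scd2f/f;CC than in Scd2f/f TAL. A higher mean in Scd2f/f;CC TAL was thus found for most genes of both zones. Cyp2e1 had a log2 ratio of 0.20, beside a median of 0.14 for the hepatocyte markers.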

How the data were processed

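RNA-seq of liver was available for 9 mice in 3 groups. Per the labels and the study's methods, the authors isolated RNA with a PicoPure kit and made polyadenylated, unstranded TruSeq v2 libraries. The submitters' processing notes name STAR 2.6.1, Partek 6 and mm10. Reads were assigned to Gencode M3 genes by the authors with Partek's E/M algorithm, scaled to the upper quartile and averaged as least-squares means per group. Of the 18 columns in the deposited table, 3 group means (signal, normalized counts rounded by the authors to 3 significant digits) were used. The other columns hold the authors' p-values, FDR, ratios and fold changes of 2 comparisons and a repeat of the treated mean (0 genes differed). They were not used.

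Ratios of means were taken with no pseudocount. Shares of all genes refer to 11784 genes with a mean of at least 1 over the groups. Lengths are merged exons of GENCODE M21 on GRCm38, and spans are those of the table, the last base counted from 1. Shared words of 50 bases were sought in all GENCODE M21 transcripts. Promoters came from RefSeq (GRCm38.p6), where 8 of 9 members were matched. The depth of each sample is unknown and no interval could be given.

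The members and gene lists were chosen with earlier results of these data known. Named are all members, Scd2, from each list at most 3 genes with the largest absolute log2 ratio in a comparison, and for Adh1, Aldh2 and Cyp2e1 the 3 genes with the nearest pair of log2 ratios. Genes beside members on chromosome 3, Aldh1a7, Alb and Apoa1 were named after their values were seen. The values of many genes of the lists, also of some with the largest ratios, are left out of the text. Alternatives were folds of 1.25 and 2, a minimum mean of 10 or none, pseudocounts of 0.1 and 1 and 2 centrings. A minimum mean of 100 was added after seeing the data. The treatment field gives the regimen for all 9 samples, and the titles and treatment characteristic, which mark 3 as untreated, were followed. Computations were tested on simulated data and used Python 3.11.15, NumPy 2.4.6, pandas 2.3.3 and Matplotlib 3.10.9.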

Additional observations from a re-analysis of the deposited data

How the results depend on the processing

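All 108 alternative values of single members (2 pseudocounts and 2 centrings) moved by less than 0.58 on the log2 scale and stayed on the same side of 1.5-fold, though 4 small log2 ratios changed sign: Aldh1a1 (-0.07) and Cat (-0.05) between the genotypes relative to the hepatocyte markers, and Adh1 in Scd2f/f;CC TAL against untreated liver relative to the median of all genes (-0.0046) and to the hepatocyte markers (-0.05). A move of less than 0.58 was fixed in advance by the settings. A centring shifts every log2 ratio by at most 0.145, and the lowest member mean over the groups, that of Adh7, was 8.86. The values against untreated liver follow from the other 2 comparisons. The counts depended on the limit. At the lower of the alternative limits, 4 members were higher and 1 lower in the first comparison, 2 were higher between the genotypes, and 4 were higher in Scd2f/f;CC TAL than in untreated liver. At 2-fold, 0 members were higher in the first comparison. Of all genes, at that limit and at 2-fold, 24.4% and 6.4% were higher and 19.6% and 2.89% lower in the first comparison, 8.46% and 0.645% higher and 11.9% and 1.54% lower between the genotypes, and 23.2% and 4.51% higher and 18.1% and 2.55% lower against untreated liver. Among genes whose mean reached 10, 7.64% were higher in the first comparison and 1.79% lower between the genotypes. With no minimum, 5.72% were higher and 9.82% lower between the genotypes. Among those whose mean reached 100, 13.0% were lower in the first comparison, and 4.58% higher and 1.07% lower between the genotypes. No paired analysis was possible because only group means were used and no result comes from a test, and for the same reason leaving out a mouse in turn was not run. A difference smaller than the spread between mice cannot be recognized here.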

Other observations

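The profile of a member over the 3 groups was compared with that of 5586 genes whose mean reached 10, by the distance between pairs of log2 ratios, over the 2 comparisons alone. The nearest genes to Adh1 were Vezt, Osbpl9 and Yipf3, at distances of 0.00245, 0.00285 and 0.00325. The nearest to Aldh2 were Gm22009, Asb13 and Fmo5, at 0.0100, 0.0150 and 0.0151, and Fmo5, a flavin monooxygenase of hepatocytes, had means of 334, 526 and 502. The nearest to Cyp2e1 were Arhgef10l, Pgap1 and Gna12, at 0.0105, 0.0105 and 0.0112. With only 3 rounded means a gene, these distances describe ratios of group means alone, and genes at unlike levels can lie close together.

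Other markers were measured beside the members. The 6 endothelial markers summed to 105, 142 and 143, and the 6 cholangiocyte markers in the table to 64.3, 59.2 and 25.6 in untreated liver and then in TAL of Scd2f/f and of Scd2f/f;CC mice. The 8 lymphocyte markers summed to 1.71, 5.29 and 3.67, and none had a mean of at least 1. Their part in the members' values was not tested.

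At the Adh cluster, the flanking genes Trmt10a (3.68, 1.81 and 2.20), Metap1 (19.6, 15.6 and 15.4) and Eif4e (27.5, 18.8 and 18.5) had lower means in both treated groups than in untreated liver, as did Adh5 and Adh7, whereas Adh1 and Adh4 between them had higher ones. Of the periportal genes, Etnppl had means of 25.4, 48.2 and 73.0.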
